A study of Arabidopsis thaliana with 3 samples.

Results

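The genes described here are the 48, of 14034 named on the arrays, whose symbols name families of cell wall enzymes and proteins. They were measured in *Arabidopsis* ABAP1OE plants, which express the transcriptional repressor ABAP1 under the constitutive CaMV 35S promoter, against wild type. The plant cell wall is built from cellulose fibres tied by hemicelluloses such as xyloglucan and embedded in pectin, and growing cells keep remodelling it. Expansins loosen the bonds between wall polymers, xyloglucan endotransglucosylase/hydrolases (XTH) cut and rejoin xyloglucan, family 9 glycoside hydrolases (GH9) are endoglucanases that cut glucan chains, cellulose synthase-like (CSL) enzymes make hemicellulose backbones, and pectin methylesterases (PME) strip methyl groups from pectin and so set how stiff a wall is. In flowers these enzymes matter for the growth of petals, filaments and fruit walls, and for the pollen tube, whose tip wall is mainly pectin.

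A gene was taken where its current symbol was a family prefix followed by a number, or by a letter and a number, on any named transcript probe. The 48 belong to 12 of the 27 prefixes searched, namely 16 GH9, 9 EXPA (alpha-expansin), 5 XTH, 4 CSLC, 3 EXPB (beta-expansin), 3 EXLA and 1 EXLB (expansin-like), 2 VGD (VANGUARD pectin methylesterases), 2 PRP, and 1 each of CSLA, GAUT (galacturonosyltransferase) and PME. The CESA, CSLB, CSLD, CSLE, CSLF, CSLG, GSL, GATL, PMEI, PGA, AGP, FLA, EXT, LRX and BXL prefixes had no member on a named probe in the annotation used here, so cellulose synthases, arabinogalactan proteins and extensins were not analysed here. The 2 PRP genes, *PRP39* and *PRP39-2*, are homologues of a pre-mRNA splicing factor and not proline-rich wall proteins, which leaves 46 wall genes.

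Both genotypes were in the Col-0 ecotype. Organ pools of ABAP1OE plants were hybridised on 2-colour oligonucleotide arrays against wild-type pools of the same kind, at 3 points of development. These were stage 13 flower buds, stage 14 flowers that had opened, and siliques of stages 15 to 16. The overexpressor was made by *Agrobacterium* transformation with an eGFP-marked plasmid, and the sources used here do not say how many lines were pooled. The values are log2 ratios of ABAP1OE over wild type, with 3 biological replicates combined by the authors into 1 ratio per probe and stage. Each stage is thus 1 sample, no test between genotypes or stages could be made and no error across plants is known. Ratios carry no expression level, so the labelled organs could not be checked by their markers.

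Each column had a median of 0 over its probes. Folds were limited to 100-fold, and 380 probes in buds, 375 in open flowers and 246 in siliques stood at the same 4.64-fold lower value, -2.21, as did the median of the 36 empty spots. A ratio at that value is therefore given with its other probes. Where a gene had several probes of its own with different ratios, their typical SD was 0.19 in buds, 0.22 in open flowers and 0.28 in siliques (56 genes), a spread between probes and not between plants.

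Of the 48 members, 20 had a probe that lists no other gene, and 28 were on probes shared with relatives only. The 56 probes behind them, 21 with 1 gene and 35 with several, form 37 distinct sets, and 22 members have the same value as another member because they have the same probes. Values below are means over all probes of a gene unless a probe is named.

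**Figure D1:**
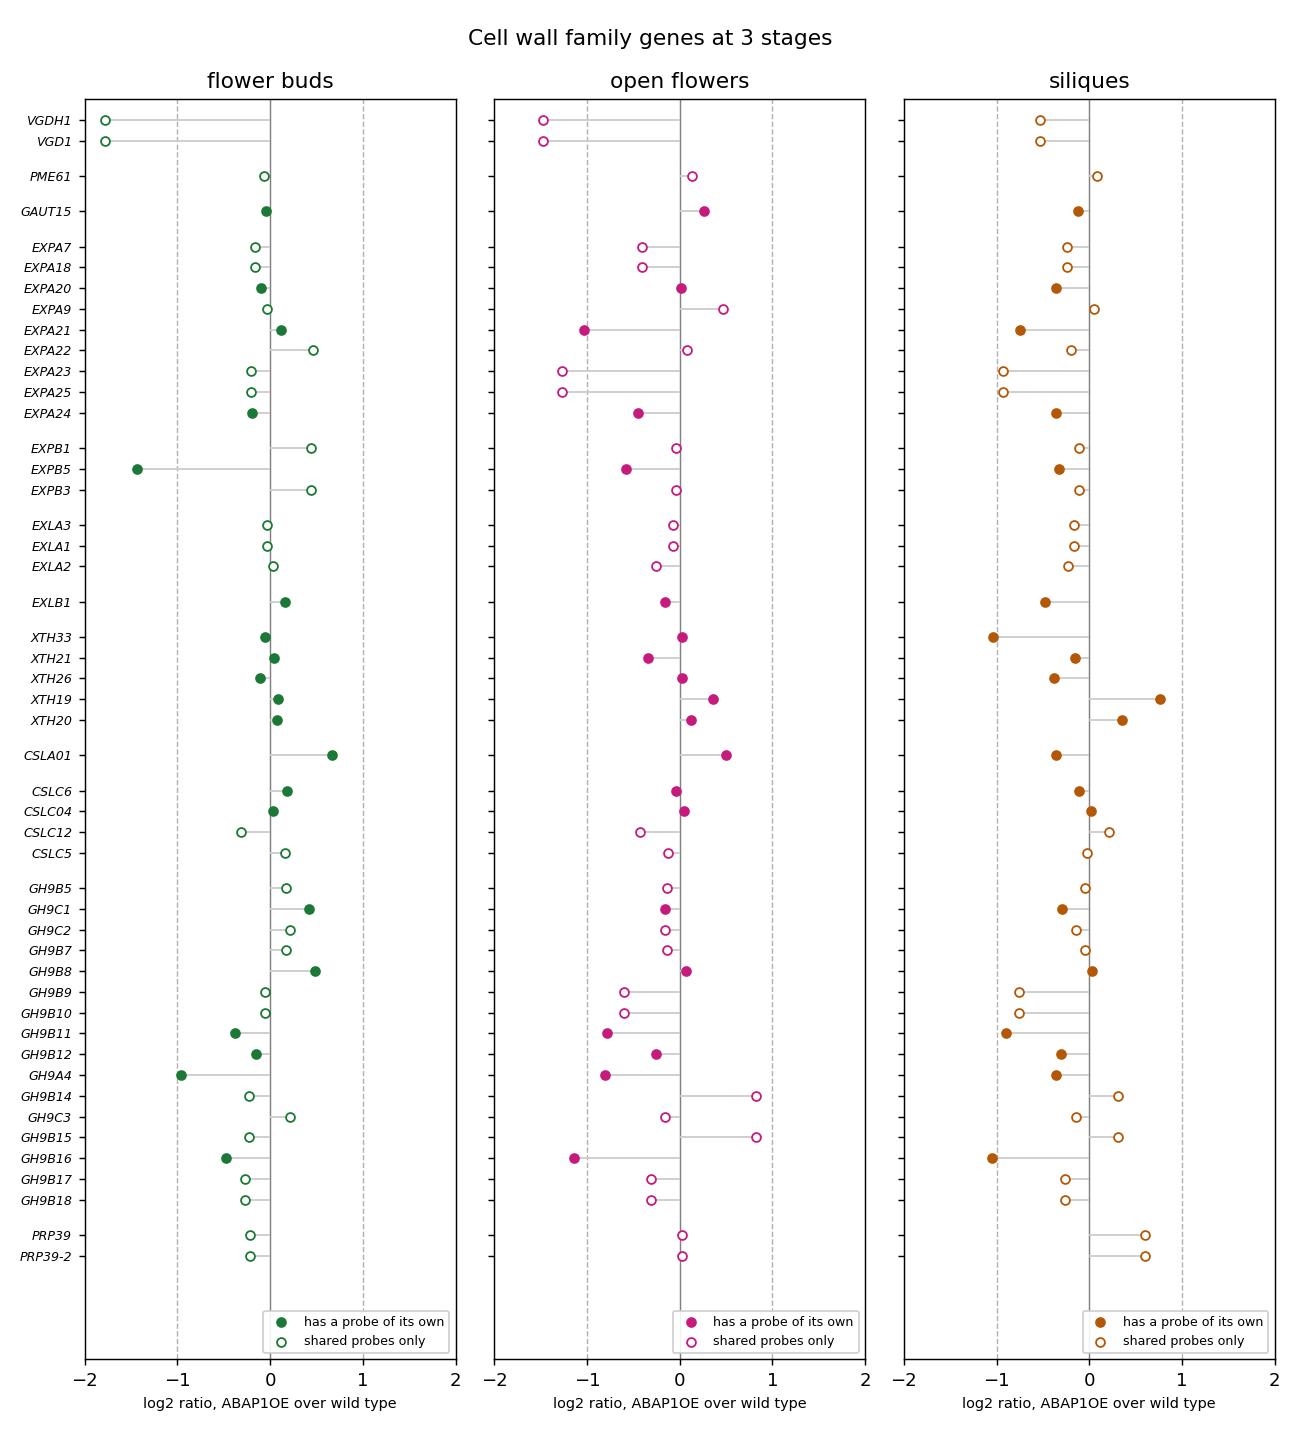
Log2 ratio of ABAP1OE over wild type (horizontal axis) of each of the 48 members, 1 panel per stage, ordered by family and then by locus. Filled points have a probe of their own, open points only shared probes, and dashed lines mark 2-fold. 40 members stay within 2-fold at every stage, and the 8 that do not are lower in ABAP1OE.

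In flower buds 3 of 48 members (6.25%) were at least 2-fold lower, *VGD1*, *VGDH1* and *EXPB5*, where 4.63% of all named genes were. In open flowers there were 6 (12.5%, against 3.32% of all genes), *VGD1*, *VGDH1*, *EXPA21*, *EXPA23*, *EXPA25* and *GH9B16*. In siliques there were 2 (4.17%, against 2.43%), *GH9B16* and *XTH33*. No member was 2-fold higher at any stage, where 0.620% of all genes were in buds, 0.727% in open flowers and 0.748% in siliques. The counts rest on fewer measurements than genes, since *VGD1* and *VGDH1* share both their probes and *EXPA23* and *EXPA25* share their only probe. In open flowers *EXPA21* passed 2-fold through that same probe (-1.27), as its own read -0.80. *VGD1* and *VGDH1* passed there through a probe at the empty spot value, -2.21, while their other read -0.74. Without values at or beyond -2.21 and 2.21 the lower counts were 3 in buds, 4 in open flowers and 2 in siliques. With each distinct set of probes taken once they were 2, 4 and 2 of 37. Over genes with probes of their own, 1 of 20 was 2-fold lower in buds (*EXPB5*, background 4.39%), 1 in open flowers (*GH9B16*, 2.79%) and 2 in siliques (*GH9B16* and *XTH33*, 2.35%).

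At 1.5-fold the lower side gained 1 endoglucanase in buds, several in open flowers, and endoglucanases and alpha-expansins in siliques. In buds 4 of 48 members were lower by that much, a share no larger than the background of 8.52%, with *GH9A4* as the addition. There 1, *CSLA01*, was higher (2.74%). In open flowers 10 were lower (5.92%), with *GH9A4*, *GH9B9*, *GH9B10* and *GH9B11* added, and *GH9B14* and *GH9B15* were higher (3.01%). In siliques 8 were lower (5.29%), the additions being *EXPA21*, *EXPA23*, *EXPA25*, *GH9B9*, *GH9B10* and *GH9B11*, and 3 were higher (4.15%), *XTH19* and both splicing factor genes. At 3-fold *VGD1* and *VGDH1* in buds were left on the lower side (2.05%), none in open flowers (1.52%) or siliques (1.15%), and none was higher (0.0784%, 0.150% and 0.185%). The pair, on the same probes, passed 3-fold only through the probe at the empty spot value, -2.21, as the other read -1.34 in buds.

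By share below 0 and by median, the members were lower than all named genes, most so in siliques. There 37 of 48 (77.1%) had a ratio below 0, where 50.4% of all named genes did, and the median was -0.21 against -0.01. In open flowers 32 of 48 (66.7%, background 51.6%) were below 0, with a median of -0.15 against -0.01, and in flower buds 29 of 48 (60.4%, background 50.2%), with a median of -0.05 against -0.01. Genes with probes of their own were below 0 in 15 of 20 cases in siliques (background 51.4%, median -0.34), but in 9 of 20 in open flowers (background 50.1%, median 0.03) and 10 of 20 in buds (background 46.7%, median 0.00). The share below 0 was thus similar on own probes in siliques and smaller on them in open flowers. By the mean over members, open flowers (-0.24) were at least as low as siliques (-0.225), and with the columns scaled to 1 spread their medians were -0.15 and -0.16. Counting each distinct set of probes once gave 28 of 37 below 0 in siliques, 23 in open flowers and 21 in buds.

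**Figure D2:**
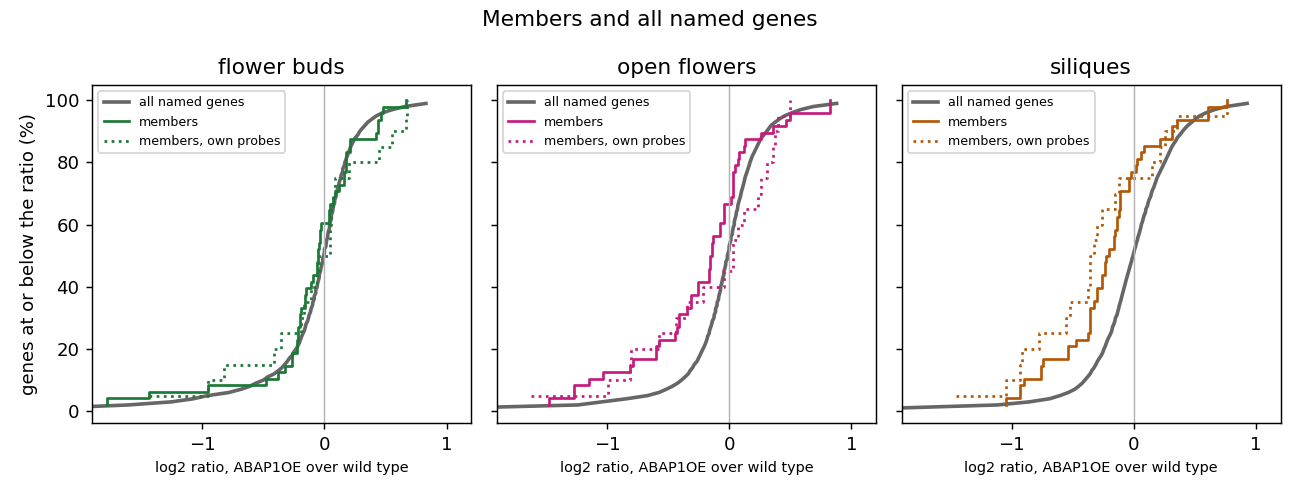
Share of genes (vertical axis, %) with a log2 ratio at or below the value on the horizontal axis, for all named genes, the 48 members and the 20 members on their own probes, 1 panel per stage. In siliques both member curves lie left of the curve of all genes through the middle of the range, with medians of -0.21 and -0.34 against -0.01. In buds the curves nearly coincide there.

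By the mean over probes, the largest bud ratios of members belonged to pectin methylesterases of pollen. *VGD1* (AT2G47040), which pollen tubes need to grow through the style, and its neighbour *VGDH1* (AT2G47030) had a log2 ratio of -1.78 in buds, -1.48 in open flowers and -0.54 in siliques, that is 3.43-fold, 2.78-fold and 1.45-fold lower in ABAP1OE. Both probes list both genes, so the 2 cannot be told apart here. One probe read -1.34, -0.74 and -0.77 at the 3 stages, and the other -2.21, -2.21 and -0.30, with its bud and open flower values at the level where the empty spots lie. With the first probe alone the pair was 2-fold lower in buds only, and its open flower and silique values were alike. Its bud value of -1.34 was then nearer to wild type than that of *EXPB5*, -1.44 on a probe of its own. *VGD1* is also among the genes that the study lists as changed in buds on these same arrays, so its bud value is not independent evidence.

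*PPME1*, a pollen pectin methylesterase that the prefix rule does not take, had -1.63 in buds, -1.01 in open flowers and -0.37 in siliques, on 4 probes with 2 different readings that all list AT5G07410 too. It was thus lower than wild type by less at each later stage. Of 34 listed pollen marker names 5 were on a named probe, and 4 of these were below 0 in buds. *PLIM2b*, an actin-bundling gene of pollen, was at -0.98, -0.29 and -0.15 at the 3 stages. The receptor kinase genes *ANX1* and *ANX2*, which keep the pollen tube intact, share a probe at -0.87, -0.45 and -0.18. The sperm cell histone gene *MGH3* was at -0.49, -0.19 and -0.24, on a probe that does not list it alone. *SHT*, in the list but an enzyme gene of the tapetum, was at 0.09, 0.43 and -0.71. The summed log2 ratio of the 5 was -3.12 in buds, -0.96 in open flowers and -1.45 in siliques. Without *SHT*, a choice made after seeing the data, it was -3.21, -1.38 and -0.74, so that open flowers and siliques changed places, and with the shared *ANX1* and *ANX2* probe taken once -2.34, -0.93 and -0.57. Their part in the pectin methylesterase result was not tested, and in such pools less pollen and less transcript per pollen grain cannot be told apart. None of the 22 tapetum and pollen wall markers was on a named probe. The 8 measured of 17 egg, synergid and central cell markers had a median of -0.44 in buds, -0.11 in open flowers and -0.04 in siliques. That bud median reflects the egg cell genes, *EC1.1* to *EC1.5*, which ran from -1.05 (*EC1.1*) to -0.44 (*EC1.2* and *EC1.3*) in buds. The central cell genes *AGL80*, *AGL61* and *DME* were at 0.23, -0.01 and -0.07 there, and no synergid marker was measured. *EC1.2* and *EC1.3* had the same value at every stage, and *EC1.2*, *EC1.3*, *EC1.4* and *AGL80* had no probe of their own.

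The other pectin genes stayed near wild type. *PME61*, on 2 probes shared with another pectin methylesterase gene, was at -0.06 in buds, 0.13 in open flowers and 0.08 in siliques. Its probes disagreed in sign at every stage. *GAUT15*, of the family that builds the galacturonan chain of pectin, was at -0.04, 0.26 and -0.12 on a probe of its own. Both were within 1.5-fold of wild type at every stage, unlike the pollen pair.

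Among expansins, *EXPB5* (AT3G60570) had the lowest bud ratio and a probe of its own, with -1.44 in buds, -0.58 in open flowers and -0.32 in siliques, or 2.71-fold, 1.49-fold and 1.25-fold lower. It too is on the study's list of genes changed in buds, so its bud value is not independent evidence either. The other beta-expansins did not share it. *EXPB1* and *EXPB3*, which share both probes, were at 0.44 in buds, -0.04 in open flowers and -0.11 in siliques. Their probes read 0.14 and 0.74 in buds, apart by more than the typical spread between probes. The 3 beta-expansins thus stood on opposite sides in buds.

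Alpha-expansins were close to wild type in buds, from -0.20 (*EXPA23*) to 0.46 (*EXPA22*), with a median of -0.16. In open flowers their median was -0.41, the lowest of any family with 3 or more members, and the range ran from -1.27 to 0.46 (*EXPA9*). In siliques 8 of 9, on 7 distinct sets of probes, were below 0 (background 50.4%), with a median of -0.36. The low values came mainly from a group of neighbours, *EXPA21*, *EXPA22*, *EXPA23*, *EXPA25* and *EXPA24* (AT5G39260 to AT5G39310), which follow each other in the RefSeq gene table with 1 gene, *EXP26*, between *EXPA23* and *EXPA25*. A probe that lists *EXPA21*, *EXPA23*, *EXPA24* and *EXPA25* read -0.20 in buds, -1.27 in open flowers and -0.93 in siliques.

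Own probes split this group. That of *EXPA21* read 0.44 in buds, -0.80 in open flowers and -0.56 in siliques, on the same side as the shared probe at the later stages. That of *EXPA24* read -0.19, 0.38 and 0.21, and so stood 1.65 above the shared probe in open flowers and 1.15 above it in siliques. *EXPA22*, on a probe shared with *EXP26*, was at 0.46, 0.08 and -0.20. Which of *EXPA21*, *EXPA23*, *EXPA24* and *EXPA25* sets the shared reading cannot be told from these values, but the own probe of *EXPA24* did not show it. *EXPA23* and *EXPA25* have no other probe.

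The remaining alpha-expansins had smaller ratios. *EXPA7* and *EXPA18*, known from root hairs, share their probes and were at -0.16, -0.41 and -0.24. *EXPA9* was at -0.03, 0.46 and 0.06 on a probe shared with *EXPA20*. The own probe of *EXPA20* read -0.16, -0.43 and -0.77, lower at each later stage and opposite in sign to the shared probe in open flowers. The expansin-like genes, which resemble expansins but have no known loosening activity, were at -0.04, -0.08 and -0.16 (*EXLA1* and *EXLA3*, neighbours on the same probes), 0.03, -0.26 and -0.23 (*EXLA2*), and 0.16, -0.16 and -0.47 (*EXLB1*). Over the 16 expansin and expansin-like genes, 10 were below 0 in buds (background 50.2%), 13 in open flowers (51.6%) and 15 in siliques (50.4%). They rest on 12 distinct sets of probes, so these counts repeat some readings.

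**Figure D3:**
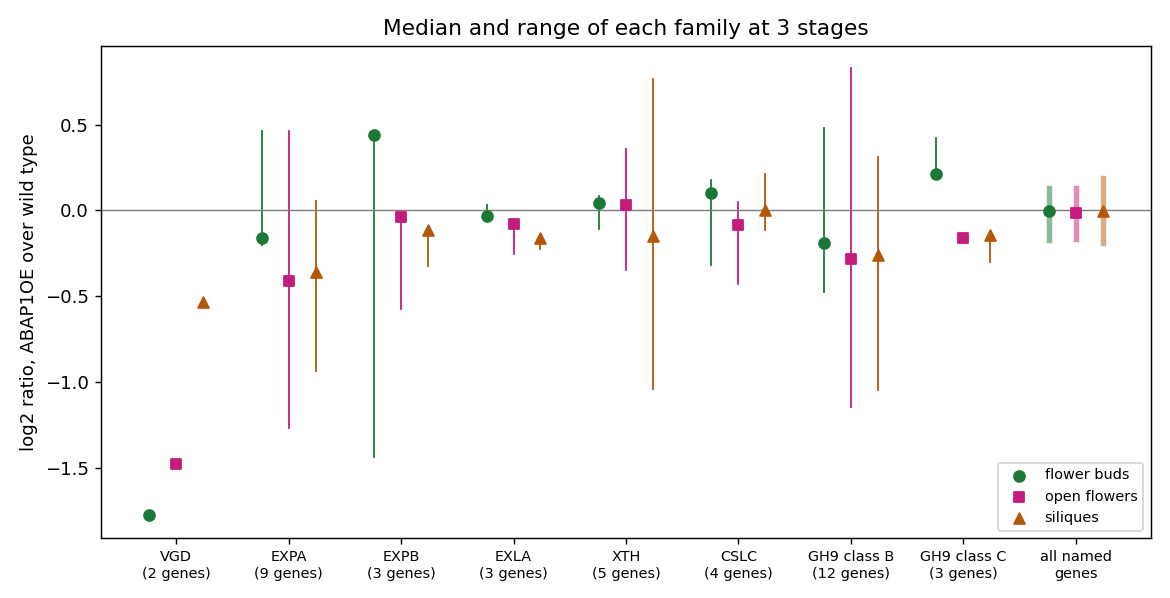
Median (symbol) and range (line) of the log2 ratio of ABAP1OE over wild type (vertical axis) in each family with 2 or more wall genes, class A of GH9 left out, beside the median and interquartile range of all named genes. VGD stands lowest in buds (-1.78) and open flowers (-1.48), and the EXPA median is -0.16 in buds and -0.41 in open flowers.

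The XTH genes all had probes of their own and were close to wild type in buds, between -0.11 (*XTH26*) and 0.08 (*XTH19*). Their values lay farther apart in siliques. *XTH33* (AT1G10550), whose product is thought to stay at the plasma membrane, was at -0.06 in buds, 0.03 in open flowers and -1.04 in siliques, 2.06-fold lower at the last stage only. *XTH19*, known from roots and wounded stems, was on the other side, with 0.08, 0.36 and 0.77, and was the highest wall member in siliques at 1.70-fold. Its close relative *XTH20* was at 0.07, 0.12 and 0.36, so that both of these were above 0 at every stage. *XTH21* was at 0.04, -0.34 and -0.15. *XTH26*, a root hair gene, was at -0.11, 0.03 and -0.38, on 2 probes with identical ratios. The silique median of the 5 was -0.15, between values on both sides that lie farther out than in any other stage.

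The hemicellulose synthase genes stayed within 2-fold at every stage. *CSLA01*, of the family that makes glucomannan, was the highest member in buds at 0.67 (1.59-fold), and was at 0.50 in open flowers and at -0.36 in siliques. *CSLC04*, which makes the xyloglucan backbone, was at 0.04, 0.05 and 0.02 as a mean over 2 probes, of which its own read 0.04, 0.31 and 0.15. Its relatives *CSLC5* and *CSLC6* were at 0.16, -0.13 and -0.02 and at 0.18, -0.04 and -0.11. *CSLC12*, at -0.32, -0.43 and 0.21, had 9 probes, 8 of which also list AT4G07940 and AT4G07950, which carry no family symbol. Single probes of it reached -2.21 in buds and 3.14 in siliques, so its mean is no measure of 1 transcript.

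The GH9 endoglucanases were the largest family. Their median was -0.10 in buds, -0.21 in open flowers and -0.26 in siliques. Below 0 were 10 of 16 in buds (background 50.2%), 13 in open flowers (51.6%) and 13 in siliques (50.4%), on 11 distinct sets of probes. The classes differ in build, with class C enzymes carrying a carbohydrate-binding module and class B enzymes secreted without it. By the mean over probes, the 3 class C genes were all above 0 in buds and all below 0 at the later stages. *GH9C1* was at 0.42, -0.16 and -0.30, and *GH9C2* and *GH9C3*, on the same probes, at 0.21, -0.16 and -0.14. All of these include a probe that lists *GH9B8* as well. On its own probe *GH9C1* read 0.56, -0.21 and -0.92, while the shared probe read 0.29, -0.10 and 0.32, so that the silique values were 1.24 apart. The other probe of *GH9C2* and *GH9C3* read 0.14, -0.23 and -0.60, so the silique side of all 3 depends on the probe. *GH9A4*, of class A, was at -0.96 in buds, -0.81 in open flowers and -0.36 in siliques on a probe of its own, 1.94-fold lower in buds and nearer to wild type in siliques, as *EXPB5* was.

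Class B held the lowest and the highest endoglucanase ratios. *GH9B16* (AT4G38990) was at -0.47 in buds, -1.14 in open flowers and -1.05 in siliques. Its own probe read -0.41, -1.62 and -1.45, and a probe shared with *GH9B17* and *GH9B18*, the next 2 genes on the chromosome, read -0.54, -0.67 and -0.64. Both probes were below 0 at all stages, and the own probe was 0.95 lower than the shared one in open flowers. *GH9B17* and *GH9B18* were at -0.27, -0.31 and -0.26, from that probe and another, which also lists AT3G42155, at 0.00, 0.04 and 0.12.

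A second neighbourhood, *GH9B9*, *GH9B10*, *GH9B11* and *GH9B12* (AT2G44540 to AT2G44570), was lower at the later stages. *GH9B11* was at -0.38, -0.79 and -0.89, and its own probe at -0.82, -0.99 and -0.93, close to the 2-fold mark in open flowers and siliques. *GH9B9* and *GH9B10*, with the same pair of probes, were at -0.05 in buds, -0.60 in open flowers and -0.76 in siliques. *GH9B12* was at -0.15, -0.26 and -0.30, but its own probe read -0.36, 0.07 and 0.25 and stood 1.11 above the probe of all 4 genes in siliques. As in the expansin group, a gene at the end of the row went against the shared probe.

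**Figure D4:**
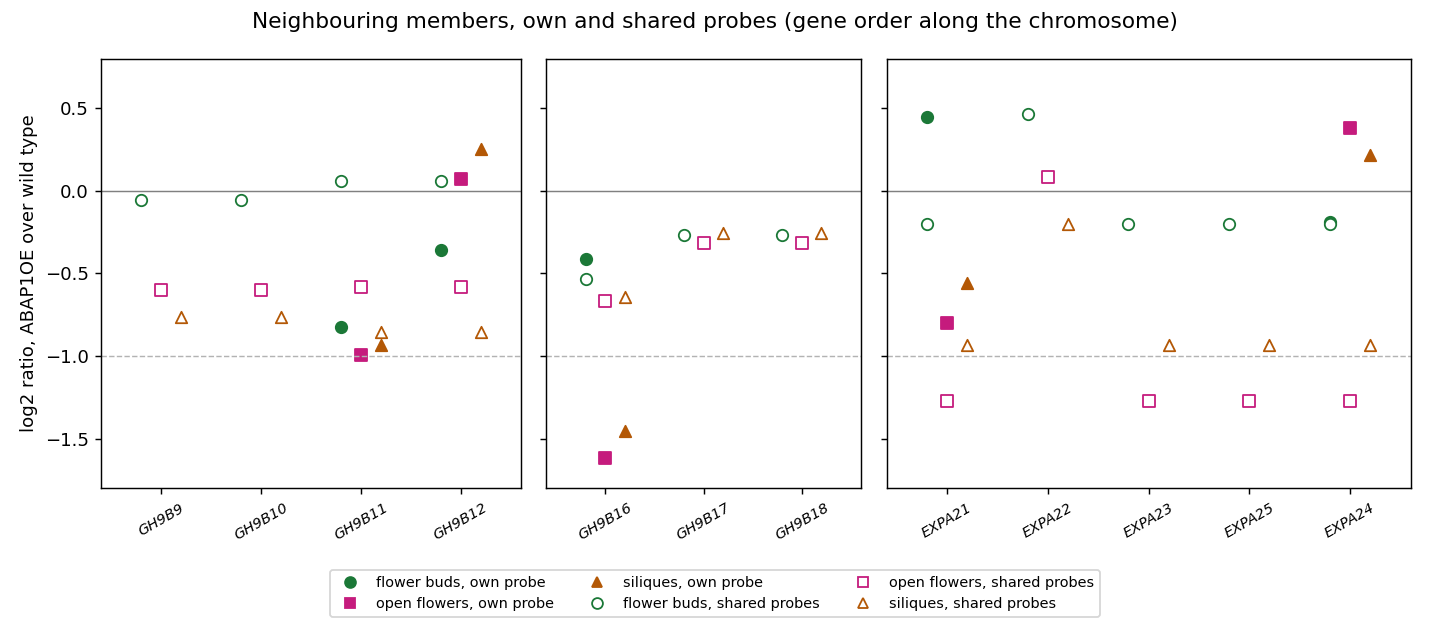
Log2 ratio of ABAP1OE over wild type (vertical axis) of the members in the 3 groups of neighbours with 3 or more genes, in gene order, with own probes filled and shared probes open (the mean where a gene has several). *GH9B11*, *GH9B16* and *EXPA21* have own probes below 0 in open flowers and siliques, and those of *GH9B12* and *EXPA24* lie above 0 there.

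On the higher side, *GH9B14* and *GH9B15* share 2 probes and were at -0.23 in buds, 0.83 in open flowers and 0.31 in siliques. Both probes read alike in open flowers, at 0.86 and 0.80, or 1.77-fold higher as a mean, the highest open flower ratio of any member. *GH9B8* was at 0.48, 0.07 and 0.03, with an own probe at 0.68, 0.24 and -0.26. *GH9B5* and *GH9B7*, on the same 2 probes, were at 0.18, -0.14 and -0.04. The class B genes thus ran from -1.14 to 0.83 in open flowers, the widest range of any family at that stage.

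How far a value names a gene could be examined in the 11 members with both an own and a shared probe. The difference between them had a median size of 0.24 in buds, 0.52 in open flowers and 0.58 in siliques. The signs were the same for 8, 5 and 4 of the 11. The largest differences were 0.88 for *GH9B11* in buds, 1.65 for *EXPA24* in open flowers and 1.24 for *GH9C1* in siliques. Ratios of members on shared probes only are thus readings of a group of relatives.

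**Figure D5:**
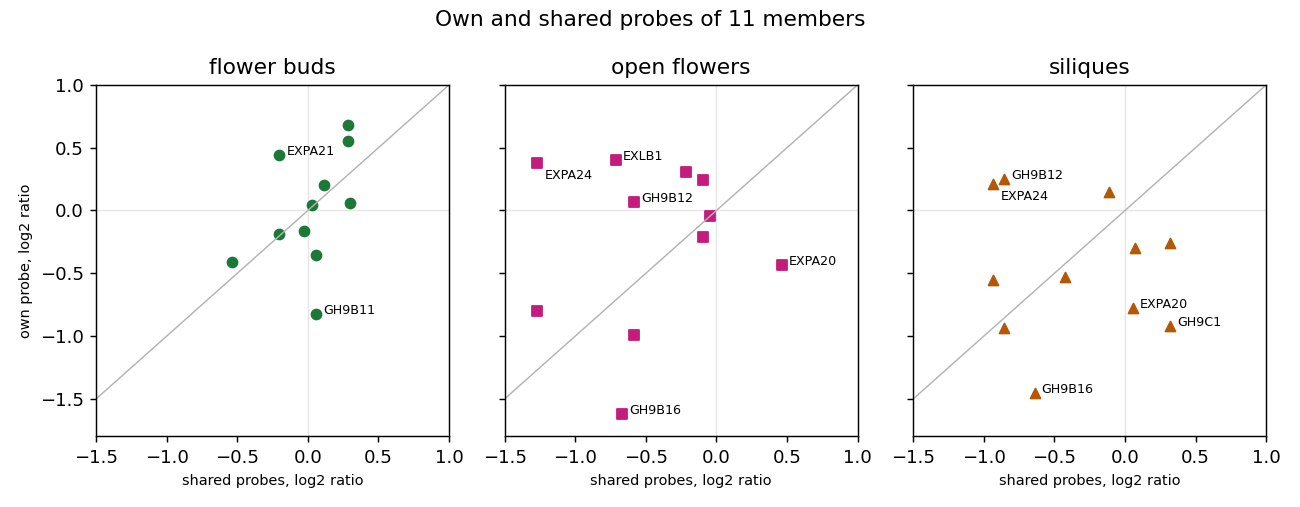
Log2 ratio on the own probe (vertical axis) against the mean of the shared probes (horizontal axis) of the 11 members with both, 1 panel per stage, with the line of equal values and names where they differ by more than 0.6. In buds the points lie nearer to the line, with a median difference of 0.24, than in siliques, with 0.58.

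Of the 5 groups of neighbouring members, with 16 genes in all, the remaining 2 were the *VGD1* and *VGDH1* pair and the *EXLA1* and *EXLA3* pair. Neighbours in these families are close relatives, and shared probes tie their values together.

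Across the stages, 18 members were below 0 at every stage, 4 were above 0 at every stage and 26 were on different sides at different stages. The same counts were not made over all named genes, and 22 members repeat the value of another, so no excess on either side can be read from them. The lowest of the 3 values was that of siliques for 19 members (39.6%, against 33.4% of all named genes), of open flowers for 17 (35.4%, against 28.7%) and of buds for 12 (against 37.9%). Across the 48 members, the ratios of buds and open flowers had a Pearson's r of 0.584, those of open flowers and siliques 0.677, and those of buds and siliques 0.212. Across all 14032 genes with values at the 3 stages it was 0.387, 0.311 and 0.226. Genes that share probes repeat the same point in these figures, and with each distinct set of probes taken once (37) r was 0.579, 0.644 and 0.211. Without *VGD1* and *VGDH1* the first was 0.378. The largest differences from buds to open flowers were those of *EXPA21* (by -1.16), *EXPA23* and *EXPA25* (by -1.07) on one side and *GH9B14* and *GH9B15* (by 1.05) and *EXPB5* (by 0.86) on the other. From open flowers to siliques they were those of *XTH33* (by -1.07) and *CSLA01* (by -0.85) on the lower side. The mean of *VGD1* and *VGDH1* differed by 0.94, which rests on the probe at the empty spot value in open flowers, since the other read -0.74 and -0.77.

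Few other wall genes could be set beside the families. Of a list of 82, 3 were on a named probe. Besides *PPME1* these were *IRX10* (listed as *GUT2*) and *IRX15*, both of xylan synthesis in secondary walls, at -0.07, -0.10 and -0.24 and at -0.08, -0.07 and 0.28. All probes of these 2 genes list other genes too. Neither reached 1.5-fold, and *PPME1* was 2-fold lower in buds and open flowers. Of the 24 listed pollen or pollen tube members of the families 2 were measured, *VGD1* and *VGDH1*, and none of the 6 listed primary wall genes and 5 secondary wall genes was on a named probe. The 2 splicing factor genes caught by the rule share 1 probe, at -0.21 in buds, 0.03 in open flowers and 0.60 in siliques.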

How the data were processed

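The authors deposited log2 ratios of ABAP1OE over wild type, 1 column per stage, from 3 biological replicates hybridised on 2-colour arrays with both dyes used for each genotype. How backgrounds were subtracted, channels normalized and replicates averaged is not given in the sources used here (the paper refers for it to a supplement that was not used here), and intensities were not used, so the signal behind a ratio is unknown. The direction comes from the labels, and the sign of the bud ratios was the same as in the study's list of changed genes for 46 of 46 genes with a probe of their own.

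Of 26545 features 71 were control spots and were left out. In the platform annotation 5784 probes listed 1 gene and 7497 several, while 13264 features, the control spots included, are unnamed here. Gene identifiers were brought to current symbols with the RefSeq gene table of assembly TAIR10.1, which held 13978 of 14034. Log2 ratios of all probes of a gene were averaged. Neighbours are protein-coding genes with at most 2 others between them in that table. With 1 sample per stage no test was made, and lists are described by counts at 2-fold and medians beside those of all named genes. Members and lists were chosen with earlier results of these data known. The rule for named genes took members at least 2-fold apart from wild type, the extremes of each larger family, all with an own probe, measured genes of the pollen and wall class lists, and other wall genes past 2-fold. The remaining members, *IRX10*, *IRX15* and the marker genes fall outside it and were named after their values were seen.

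Alternatives concerned the probes used, values at the limit and its steps, genes on the study's list, centring, scaling, other fold sizes, the mean and Spearman's correlation. Counting and averaging were tested on simulated data. The tools were matplotlib 3.10.9, scipy 1.17.1, pandas 2.3.3 and numpy 2.4.6 under Python 3.11.15.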

Additional observations from a re-analysis of the deposited data

Results flagged for a closer look

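Members on opposite sides of wild type at 2 stages, both ratios larger than the typical SD between probes of a gene, were 6, and no difference between stages was tested. The share of all named genes that meet this rule was not computed, so the 6 show no excess among members. *CSLA01* spanned 1.03 on the log2 scale, from 0.67 in buds to -0.36 in siliques. *GH9B14* and *GH9B15*, on the same probes, spanned 1.05, from -0.23 in buds to 0.83 in open flowers. *PRP39* and *PRP39-2*, the splicing factor genes on 1 probe, spanned 0.82, from -0.21 in buds to 0.60 in siliques. *GH9C1* spanned 0.72, from 0.42 in buds to -0.30 in siliques, where its own probe read -0.92 and its shared probe 0.32. Its silique side thus depends on the probe.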

How the results depend on the processing

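No paired analysis was possible because the replicates of a stage were merged into 1 ratio and nothing was tested. Among 117 recomputations 63 gave the reported value, in part because a setting did not touch it, 39 stayed close (counts within 1.5 times, medians within the SD between probes of a gene, correlations within 1 standard error) and 15 moved. The cause was not tested beyond what each setting removes. The medians over all members were smaller in size than that SD at every stage, so one that changed sign could count as close. In open flowers the median went from -0.15 to 0.03 on own probes and counted as close. The tally thus cannot show that these medians are stable. With probes that list 1 gene only, 1 member was at least 2-fold lower in buds and 1 in open flowers, among 20 genes. Without genes on the study's list 1 was lower in buds, *VGDH1*, on the same probes as the *VGD1* left out. At 1.5-fold the lower side held 10 members in open flowers and 8 in siliques, while 1, 2 and 3 were higher in buds, open flowers and siliques. At 3-fold the lower counts at the later stages were 0 and 0. With the probe farthest from 0, 1 was 2-fold higher in siliques, *CSLC12*. Without values at or beyond -2.21 and 2.21, the *VGD1* and *VGDH1* median was -1.34 in buds and -0.74 in open flowers, and the correlation between these stages was 0.432. As Spearman's rho it was 0.457. Leaving out probes that also list genes outside the families, an alternative chosen after seeing the data, removed 4 members and changed none of these counts at 2-fold.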
